A study of Mus musculus with 4 samples.

Results

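The 35 genes described here encode the glucose transporter and enzymes of glycolysis, the steps that decide the fate of pyruvate and lactate, the sensors of oxygen, and well-known targets of the hypoxia response. They were taken as a list of gene symbols, and all 35 were among the 32285 genes of the count table. Their levels were read as UMIs (unique molecular identifiers, one per captured transcript) per 10000 UMIs, pooled over the cells of a cell type in each tumor. By role, the list holds 1 gene of glucose uptake, 10 of upper glycolysis, 5 of lower glycolysis, 3 of lactate and pyruvate fate, 3 of oxygen sensing, 3 that act at mitochondria and 10 other hypoxia targets.

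Glycolysis splits glucose into pyruvate and yields ATP without oxygen, and lactate dehydrogenase then turns pyruvate into lactate that leaves the cell through monocarboxylate transporters. When oxygen is low, the prolyl hydroxylases that mark the transcription factor HIF-1α for degradation slow down, and HIF-1α with its partner ARNT binds a short core sequence near its target genes. Many glycolytic genes are among these targets, and tumors often hold regions of low oxygen.

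Viable CD45+ cells were sorted from EO771 tumors, a mouse mammary carcinoma line injected into the mammary gland of female mice, and sequenced with a 3′ single-cell kit. All 4 mice carried Csf1r fl/fl, a floxed allele of the CSF1 receptor gene. Tumors of 2 mice without Cre served as controls (Csf1r fl/fl), and 2 mice also carried Lyve1Cre (Lyve1Cre Csf1r fl/fl), so that Csf1r is deleted where Lyve1 has been active. Each of 2 Chromium runs pooled 1 tumor of each genotype and the hashtag read of a cell gave its tumor. Lyve1 is also active in lymphatic endothelium, so the Cre does not act in macrophages alone. Values for single tumors are given below in a fixed order: Csf1r fl/fl runs 1 and 2, then Lyve1Cre Csf1r fl/fl runs 1 and 2.

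The 28429 kept cells held between 27686362 and 56715743 UMIs per tumor, with medians of 3721 to 4657 UMIs per cell. Gates on lineage markers, none of them a member of the list, placed 16651 cells (58.6%) in 15 cell types, and 13 of these had at least 20 cells in every tumor. Neutrophils were gated on S100a8 and S100a9, at 200 or more UMIs per 10000. These genes were together at 1310 to 1650 per 10000 there, against at most 26.3 in any other type, a gap that the gate itself makes. Gated tumor and stromal cells were 214 cells with Ptprc (CD45) at 0.144 to 0.21 per 10000, a median of 48334 UMIs and 42.1% doublet calls, so they were described apart from the leukocytes. Csf1r itself in C1q macrophages was at 1.78, 2.42, 1.41 and 1.53 per 10000, and 3′ counts do not show whether the floxed exons are present. Lyve1 was at 0 to 0.00624 per 10000 in every gated leukocyte type. Of 28429 kept barcodes, 60 occurred in both runs. In sums of this kind, fewer cells that express a gene and less RNA per cell cannot be told apart.

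The 250 bases before the transcription start are printed here for a selection of the genes named below. They show where the core of the hypoxia response element lies. Bases are in lower case, with each ACGTG or GCGTG, on either strand, in capitals (on the opposite strand these read CACGT and CACGC). The sequences and coordinates are those of RefSeq on GRCm38.p6, written 5′ to 3′ on the strand of the gene.
Slc2a1 (chr4:119108495-119108744, plus strand): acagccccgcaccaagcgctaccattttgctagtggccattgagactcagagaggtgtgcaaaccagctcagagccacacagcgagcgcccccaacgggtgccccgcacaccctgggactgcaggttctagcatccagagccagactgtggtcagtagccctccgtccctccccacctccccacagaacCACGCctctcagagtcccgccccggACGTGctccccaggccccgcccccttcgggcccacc
Slc16a3 (chr11:120948817-120949066, plus strand): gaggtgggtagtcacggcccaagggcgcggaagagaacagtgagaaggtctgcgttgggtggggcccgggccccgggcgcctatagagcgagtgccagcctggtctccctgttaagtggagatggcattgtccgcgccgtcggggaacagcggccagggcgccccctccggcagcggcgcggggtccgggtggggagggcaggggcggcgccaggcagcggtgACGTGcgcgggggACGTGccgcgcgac
Egln3 (chr12:54203875-54204124, minus strand): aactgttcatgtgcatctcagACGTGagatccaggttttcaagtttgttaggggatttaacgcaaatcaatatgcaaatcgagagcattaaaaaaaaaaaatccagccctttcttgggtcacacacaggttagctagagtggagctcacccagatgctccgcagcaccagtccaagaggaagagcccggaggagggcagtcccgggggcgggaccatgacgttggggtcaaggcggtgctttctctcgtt
Bnip3 (chr7:138909507-138909756, minus strand): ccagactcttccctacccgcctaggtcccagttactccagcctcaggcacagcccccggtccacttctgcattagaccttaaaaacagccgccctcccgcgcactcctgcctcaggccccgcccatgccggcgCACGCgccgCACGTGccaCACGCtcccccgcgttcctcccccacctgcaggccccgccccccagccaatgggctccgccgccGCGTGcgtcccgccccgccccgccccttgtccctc
Ankrd37 (chr8:45999851-46000100, minus strand): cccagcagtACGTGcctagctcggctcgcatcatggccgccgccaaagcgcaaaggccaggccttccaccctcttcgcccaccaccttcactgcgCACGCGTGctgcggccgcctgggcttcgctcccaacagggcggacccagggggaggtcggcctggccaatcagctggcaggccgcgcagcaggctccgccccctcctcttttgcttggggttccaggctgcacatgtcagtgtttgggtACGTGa
Pfkfb3 (chr2:11553930-11554179, minus strand): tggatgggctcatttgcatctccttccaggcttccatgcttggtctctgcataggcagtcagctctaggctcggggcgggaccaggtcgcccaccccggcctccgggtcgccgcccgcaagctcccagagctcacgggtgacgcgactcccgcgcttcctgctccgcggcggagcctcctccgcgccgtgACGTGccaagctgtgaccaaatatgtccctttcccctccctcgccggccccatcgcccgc

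The core was found at 37 of 47 annotated starts of the 33 members with an entry (78.7%), against 38.6% of all 32851 starts of the same length. The windows of the members were richer in G and C, with a median of 62.8% against 52.4%, and among starts of all genes between the lower and upper quartile of the members' G and C content the share was 55.9%. Slc2a1, Slc16a3, Bnip3 and Ankrd37 each had 2 or more cores, with 4 for Bnip3 and for Ankrd37, and Egln3 had 1 at 229 bases before its start. Pfkfb3 has 2 annotated starts, and the 1 shown had a core at 60 bases before it. Mxi1 and Hk2, also named below, are not shown, and an annotated start of Mxi1 had 0 cores. Ndrg1 and Bnip3l had no entry. CACGTG, which holds the core on both strands and was counted as 1, occurred at 8.51% of the members' starts and 6.02% of all starts. These matches describe letters only, and no binding was measured.

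Across the 12 leukocyte types with at least 20 cells per tumor, the members divided into groups with different highest cell types, and the division depended on the scale. Per 10000 UMIs, the same type was the highest in 4 of 4 tumors for 23 of the 35 members, beside 31.3% of the 12593 genes with at least 10 UMIs in their highest type. Arg1 macrophages, gated on Arg1, Mmp12, Gpnmb and Spp1, led for 10 of them, neutrophils for 9, mature dendritic cells for 2 and regulatory T cells for 2. Among all genes these types led for 0.627%, 5.39%, 5.49% and 2.15%. For 17 of the 23, every tumor's value in the highest type was above every tumor's value in the second type, beside 66.7% of all genes with a constant highest type. The second scale divided the levels by TMM factors, which center most genes between the sums and were chosen here after the data were seen. Their mean was 0.474 in neutrophils, 0.815 in mature dendritic cells and 0.946 to 1.27 in the other types. On that scale 28 members had a constant highest type (39.3% of all genes), 26 of them neutrophils (14.6%) and 2 mature dendritic cells (7.94%), and Arg1 macrophages led for none (0.27%). The levels below are per 10000 UMIs unless the TMM scale is named. Gate genes such as Arg1 and Spp1 can themselves respond to low oxygen, as background, so the gate is not blind to the pathway.

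Among leukocytes, all 5 enzymes of lower glycolysis were highest in Arg1 macrophages per 10000 UMIs, and all 5 had a higher mean in neutrophils on the TMM scale. Processed pseudogenes exist for several of them, among them Gapdh, Eno1 and Pgam1, so reads may be split between copies. Gapdh, the glyceraldehyde-3-phosphate dehydrogenase, was at 23.5, 16.5, 21.0 and 17.5 UMIs per 10000 there, against a mean of 12.9 ± 0.514 (SD, n = 4) in cycling CD8 T cells, the next type. Pgk1, the first ATP-yielding enzyme of the pathway, was at 5.02, 4.85, 5.87 and 6.08 in Arg1 macrophages and at a mean of 2.97 ± 0.187 in regulatory T cells. Neither pair of types overlapped between tumors. On the TMM scale the mean of Gapdh was 23.99 in neutrophils and 19.4 in Arg1 macrophages, and that of Pgk1 was 6.18 and 5.33, with overlapping tumors for both. Pkm, the pyruvate kinase, averaged 10.02 ± 0.437 in Arg1 macrophages and 7.57 ± 0.591 in Ly6c2 monocytes. Aldoa, Tpi1 and Gpi1 of upper glycolysis were likewise highest in Arg1 macrophages per 10000 UMIs and in neutrophils on the TMM scale, with Aldoa at 10.1 ± 0.599 per 10000 in Arg1 macrophages and 6.35 ± 0.631 in regulatory T cells. Plasmacytoid dendritic cells were lowest for Aldoa, Tpi1, Gapdh, Pgk1, Eno1 and Pkm, where Tpi1 averaged 0.654 ± 0.241.

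Neutrophils were highest for the entry and the exit of the pathway on both scales. Slc2a1, the glucose transporter GLUT1, was at 2.46, 3.36, 2.64 and 3.74 per 10000 in neutrophils, followed by Arg1 macrophages at 1.69 ± 0.177 and with mature dendritic cells lowest at 0.0992 ± 0.0523. Slc16a3, the lactate exporter MCT4, was at 5.37, 7.96, 5.91 and 6.64 in neutrophils and at 2.20 ± 0.216 in Arg1 macrophages. For both transporters the neutrophils of every tumor stood above all other leukocytes. Hk2, the inducible hexokinase, averaged 3.98 ± 1.12 in neutrophils and 2.35 ± 0.488 in Arg1 macrophages, with overlapping tumors. Egln3, an oxygen-sensing prolyl hydroxylase that HIF induces, had the widest range among members detected in every type, at 1.80 ± 0.370 in neutrophils, 0.533 ± 0.0329 in Arg1 macrophages and 0.0255 ± 0.0162 in cycling CD8 T cells, 70.7-fold below neutrophils. The level in cycling CD8 T cells rests on 18 UMIs in all.

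A few members had their highest leukocyte level elsewhere per 10000 UMIs, of which Ndrg1 alone among the 4 given here was not highest in neutrophils on the TMM scale. Hif1a, the oxygen-regulated subunit itself, was at 5.84, 7.52, 6.66 and 6.88 in regulatory T cells and at 5.52, 3.90, 5.30 and 3.34 in CD4 T cells without Foxp3, with no overlap. Its mean on the TMM scale was 7.09 in neutrophils and 5.38 in regulatory T cells. Ddit4, an inhibitor of mTORC1, was also highest in regulatory T cells, at 1.22 ± 0.172 against 0.666 ± 0.203 in neutrophils, and turned to 0.979 against 1.39 on the TMM scale. Pfkfb3, which makes the activator of phosphofructokinase, was at 1.87, 1.90, 1.78 and 1.69 in mature dendritic cells, just above 1.67, 1.56, 1.58 and 1.65 in neutrophils. On the TMM scale its order turned, with a mean of 2.23 in mature dendritic cells and 3.41 in neutrophils. Ndrg1, a stress-induced gene, averaged 2.54 ± 0.642 in mature dendritic cells and 1.75 ± 0.449 in Arg1 macrophages, and these overlapped.

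**Figure D1:**
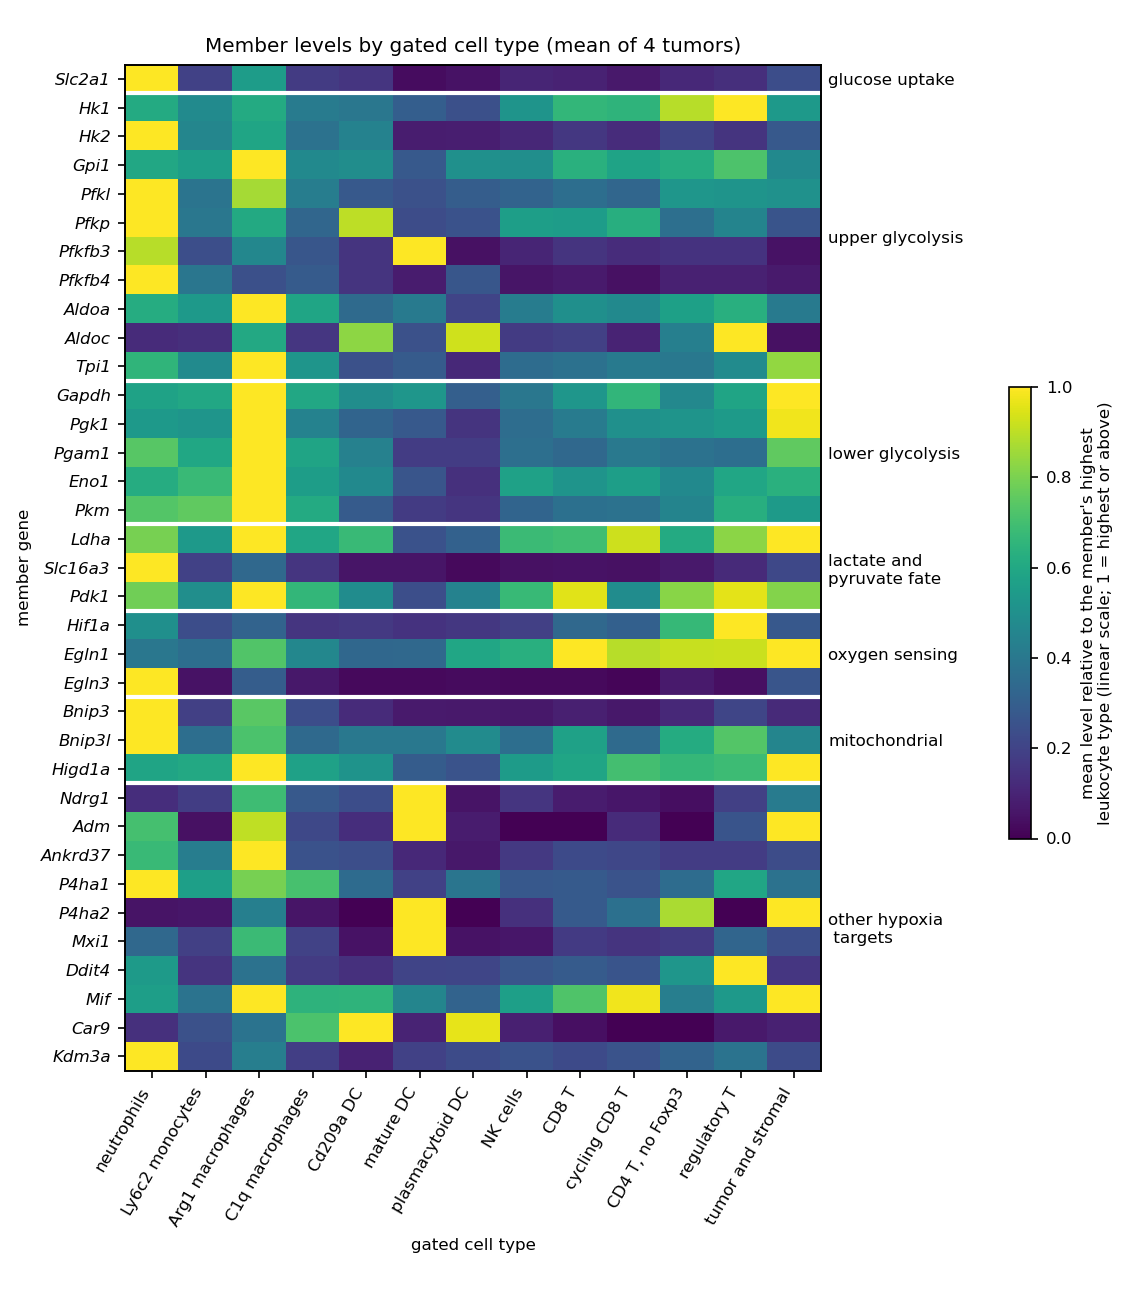
Mean level of each of the 35 members (rows, grouped by role) in the 13 cell types with at least 20 cells per tumor (columns), divided by the member's highest leukocyte mean, on library totals. Among the leukocyte columns, on this scale, lower glycolysis is brightest in Arg1 macrophages, Slc2a1, Hk2, Slc16a3 and Egln3 in neutrophils, and Pfkfb3 and Ndrg1 in mature dendritic cells.

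The mean of tumor and stromal cells stood above that of every leukocyte type for 7 of the 35 members, beside 19.2% of all genes. For 4 of the 7, Mif, Adm, P4ha2 and Ldha, every tumor's value was above every leukocyte value (7.67% of all genes). On the TMM scale the mean was highest in these cells for 4 members, Mif, Adm, P4ha2 and Egln1, beside 19.1% of all genes. Mif, a secreted cytokine with hypoxia-responsive expression, was at 14.6, 15.1, 17.2 and 14.9 per 10000 there, against 9.16 ± 2.33 in Arg1 macrophages. Adm, which encodes the vasoactive peptide adrenomedullin, averaged 0.449 ± 0.183 and P4ha2, a collagen prolyl hydroxylase subunit, 0.333 ± 0.0594 in these cells. In leukocyte types neither exceeded a mean of 0.0343. Car9, a carbonic anhydrase and a widely used hypoxia marker, reached a mean of at most 0.0548 per 10000, in Cd209a dendritic cells with 14 UMIs in all, and was at 0 UMIs in CD4 T cells without Foxp3, which allows up to 0.0403 per 10000 (3 counts over the group, counting error only). Gapdh, Ldha, Egln1 and Higd1a completed the 7 on library totals.

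The levels of the members were also set against each other across the 12 leukocyte types. Over the 496 pairs of the 32 members with at least 200 UMIs, Spearman's rho between mean levels had a median of 0.43 and ran from -0.48 to 0.95, and 86.9% of the pairs were above 0. Over all pairs of the 10474 genes with as many UMIs the median was 0.11, and 59.0% were above 0. The pairs most alike were Pgk1 with Pkm (0.95), then Slc2a1 with Hk2, Hk2 with Ankrd37 and Aldoa with Tpi1 (0.94 each), while Egln1 with Ndrg1 and Egln1 with Pfkfb4 (-0.48 each) ran in opposite directions. The median was 0.49 within glycolysis, 0.45 between glycolytic and other members and 0.37 among the others. These are descriptions over 12 types that come from the same tumors and libraries, and a shared total ties all levels of a type together.

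**Figure D2:**
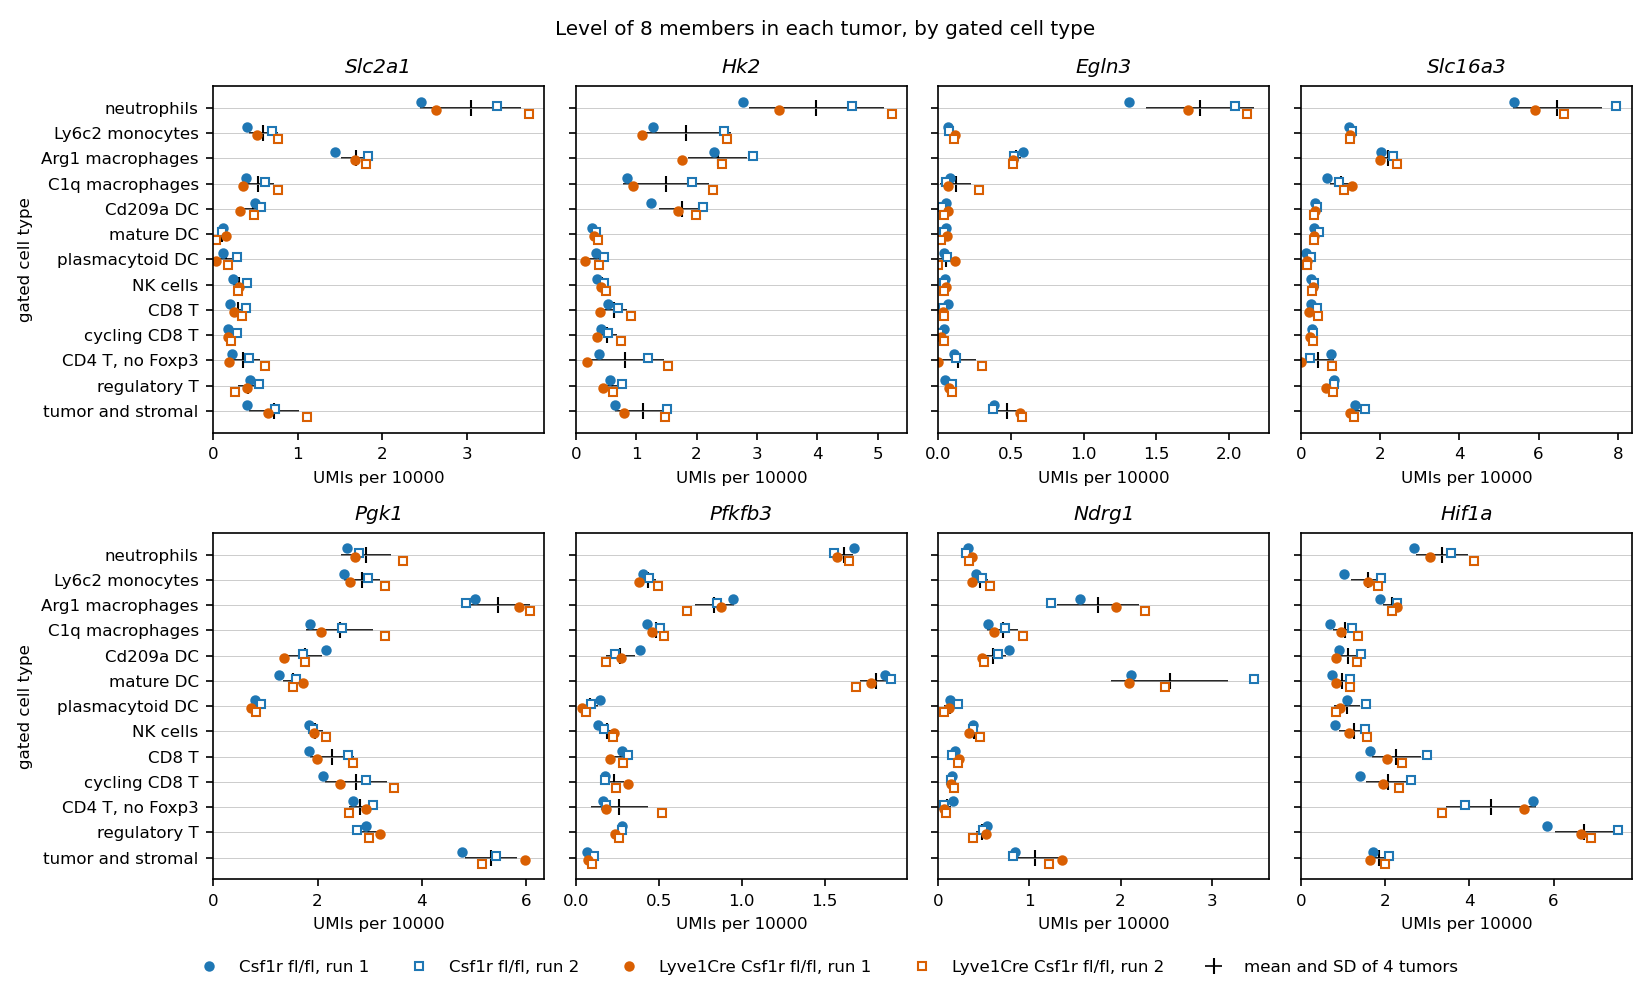
UMIs per 10000 of 8 members in each of the 4 tumors, by cell type; circles are run 1, squares run 2, colors the genotypes, and black marks the mean and SD of 4 tumors. Neutrophils stand apart for Slc2a1, Egln3 and Slc16a3, on this scale Arg1 macrophages lead the leukocytes for Pgk1, and Hk2 is higher in run 2 than in run 1 in every type shown.

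The next comparison asked how the list differed between macrophage states of the same tumors. Of the 35 members, 30 passed the filter on low counts, and 28 of them were higher in Arg1 macrophages than in C1q macrophages, with none lower, in edgeR's quasi-likelihood test with tumor as a block and Benjamini-Hochberg adjustment over all 5468 genes tested. Across all those genes, 10.2% were higher, 6.42% were lower and 16.7% were called in either direction. On library totals, a scale chosen after the data were seen, 26 members were higher and none lower, beside 7.88% and 9.53% of all genes. The median log2 difference was 0.98 over the tested members and -0.02 over all genes. Cells that passed both gates were left out, and gate genes such as Arg1 and Spp1 can respond to low oxygen, as said above. The part of the gates in these counts was not tested.

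Egln3 was at 0.582, 0.523, 0.511 and 0.516 UMIs per 10000 in Arg1 macrophages and at 0.0811, 0.0513, 0.0637 and 0.279 in C1q macrophages (log2 fold change 2.72, SE 0.31, adjusted p = 9.44e-07). The Lyve1Cre Csf1r fl/fl tumor of run 2 had the highest Egln3 among C1q macrophages, and the types did not overlap. Ankrd37, a small ankyrin repeat protein that HIF induces, was at 1.01, 0.555, 0.779 and 0.412 against 0.225, 0.0747, 0.255 and 0.139 (log2 fold change 2.23, SE 0.24, adjusted p = 2.92e-07). Mxi1, an antagonist of MYC, was at 0.797, 0.850, 1.53 and 0.773 against 0.222, 0.345, 0.178 and 0.395 (1.87, SE 0.24, adjusted p = 3.23e-06). Slc2a1 was at 1.44, 1.83, 1.68 and 1.80 against 0.387, 0.611, 0.357 and 0.767 (1.82, SE 0.16, adjusted p = 2.25e-08). All 4 genes were higher in Arg1 macrophages in 4 of 4 tumors with no overlap. The filter on low counts can pass a gene on its counts in 1 type alone, as it may have for Egln3. All 4 kept their calls with no filter.

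By role, 7 of 8 tested members of upper glycolysis, 5 of 5 of lower glycolysis, 3 of 3 of lactate and pyruvate fate, 3 of 3 of oxygen sensing, 3 of 3 at mitochondria and 6 of 7 other targets were higher in Arg1 macrophages. The lower glycolysis genes differed by less than the leading hypoxia targets, with Gapdh at 0.82 (SE 0.09) and Pgk1 at 1.29 (SE 0.13) on the log2 scale. Bnip3, a mitophagy receptor, reached 1.75 (SE 0.15), and its paralog Bnip3l 1.22 (SE 0.16). Hk1, the constitutive hexokinase, at 0.63 (adjusted p = 0.056), and P4ha1, at 0.33 (adjusted p = 0.199), did not pass. Among other genes of the pathway, 10 of 14 tested in a further hypoxia list were higher and none lower, led by Vegfa (2.21, SE 0.27), the angiogenic growth factor, and Hilpda (2.18, SE 0.21), an inhibitor of fat breakdown. Of the pentose phosphate genes, 1 of 6 was higher, Pgd, and of other glycolytic genes 1 of 3, Pgm1.

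S100a8 and S100a9, as markers of neutrophil RNA, were together at 4.69 to 26.3 per 10000 in Arg1 macrophages and 5.37 to 17 in C1q macrophages, which overlapped. Doublet calls made up 16.5% and 13.7% of the cells. Arg1 macrophages numbered 85, 108, 71 and 33 cells in the tumors. In the Lyve1Cre Csf1r fl/fl tumor of run 2 the 4 Arg1 gate genes were together at 8.67 per 10000 in C1q macrophages, against 1.36 to 2.34 in the other tumors, and the part of this in the Egln3 value was not tested.

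Neutrophils were set against Ly6c2 monocytes, another abundant myeloid type. The answer depended on the scale. S100a8 and S100a9 alone took 1310 to 1650 of every 10000 neutrophil UMIs, and their part in the gap between the scales was not tested. On the TMM scale, which centers most genes, all 32 tested members were higher in neutrophils, where 70.9% of all 9122 genes were called, 35% higher and 35.9% lower. On library totals 22 members were higher and 1 was lower, beside 16.9% of all genes higher and 67.5% lower. The change of scale moved the median of all genes from -0.11 to -1.06, and the median of the members from 1.60 to 0.66.

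The largest differences on the TMM scale were those of Egln3, Slc2a1, Slc16a3 and Bnip3, and these 4 were higher on library totals too. Egln3 was at 1.31, 2.04, 1.72 and 2.13 per 10000 in neutrophils and at 0.0673, 0.0714, 0.116 and 0.106 in monocytes (log2 fold change 5.31, SE 0.17, adjusted p = 7.04e-14, and 4.35 on totals). With doublet calls left out, the difference of Egln3 was 6.35 on the TMM scale. Slc2a1 in monocytes was at 0.395, 0.698, 0.520 and 0.764 (3.34, SE 0.12, and 2.38 on totals, with neutrophil values as above). Slc16a3 in monocytes was at 1.22, 1.2996, 1.24 and 1.24 (3.31, SE 0.13, and 2.35 on totals). Bnip3 was at 2.58, 1.67, 3.03 and 2.95 in neutrophils and 0.586, 0.409, 0.573 and 0.376 in monocytes (3.30, SE 0.15, and 2.35 on totals). None of these 4 overlapped between the types in any tumor.

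Of the 5 enzymes of lower glycolysis, 4 were not called on library totals: Gapdh, Pgk1, Eno1 and Pkm. Pgam1, a phosphoglycerate mutase, was higher on both scales, at 1.26 (SE 0.11) on the TMM scale and 0.31 on totals. Gapdh was at 14.4, 8.64, 13.2 and 8.91 per 10000 in neutrophils and at 13.7, 9.76, 12.7 and 11.1 in monocytes, a log2 fold change of 0.86 (SE 0.10) on the TMM scale and -0.09 on totals. Pkm, at 0.90 on the TMM scale and -0.05 on totals, and Eno1, the enolase, at 0.82 and -0.13, turned direction in the same way. Ndrg1 was higher on the TMM scale (0.51, SE 0.14, adjusted p = 0.00301) and lower on totals (-0.44), with levels of 0.329, 0.303, 0.365 and 0.334 in neutrophils below 0.418, 0.481, 0.373 and 0.567 in monocytes. Of the further hypoxia list, 12 of 15 were higher and 1, Pdk3, was lower on the TMM scale, led by Vegfa (5.03, SE 0.16) and Hilpda (4.99, SE 0.19), and on library totals 11 were higher and 3 lower. Vhl, which recognizes hydroxylated HIF-1α, was higher on the TMM scale alone, and its level was lower in neutrophils in 4 of 4 tumors, at 0.161, 0.144, 0.160 and 0.196 per 10000 against 0.185, 0.195, 0.205 and 0.286. Slc2a3, the high-affinity glucose transporter GLUT3, led 5 of 6 other glycolytic genes that were higher, at 6.68 (SE 0.21), and 3 of the 6 were higher on totals. Of 7 pentose phosphate genes 2 were higher and 4 lower, and Taldo1 and Pgd, the 2 higher on the TMM scale, had lower levels per 10000 in neutrophils in every tumor. On totals all 7 were lower.

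**Figure D3:**
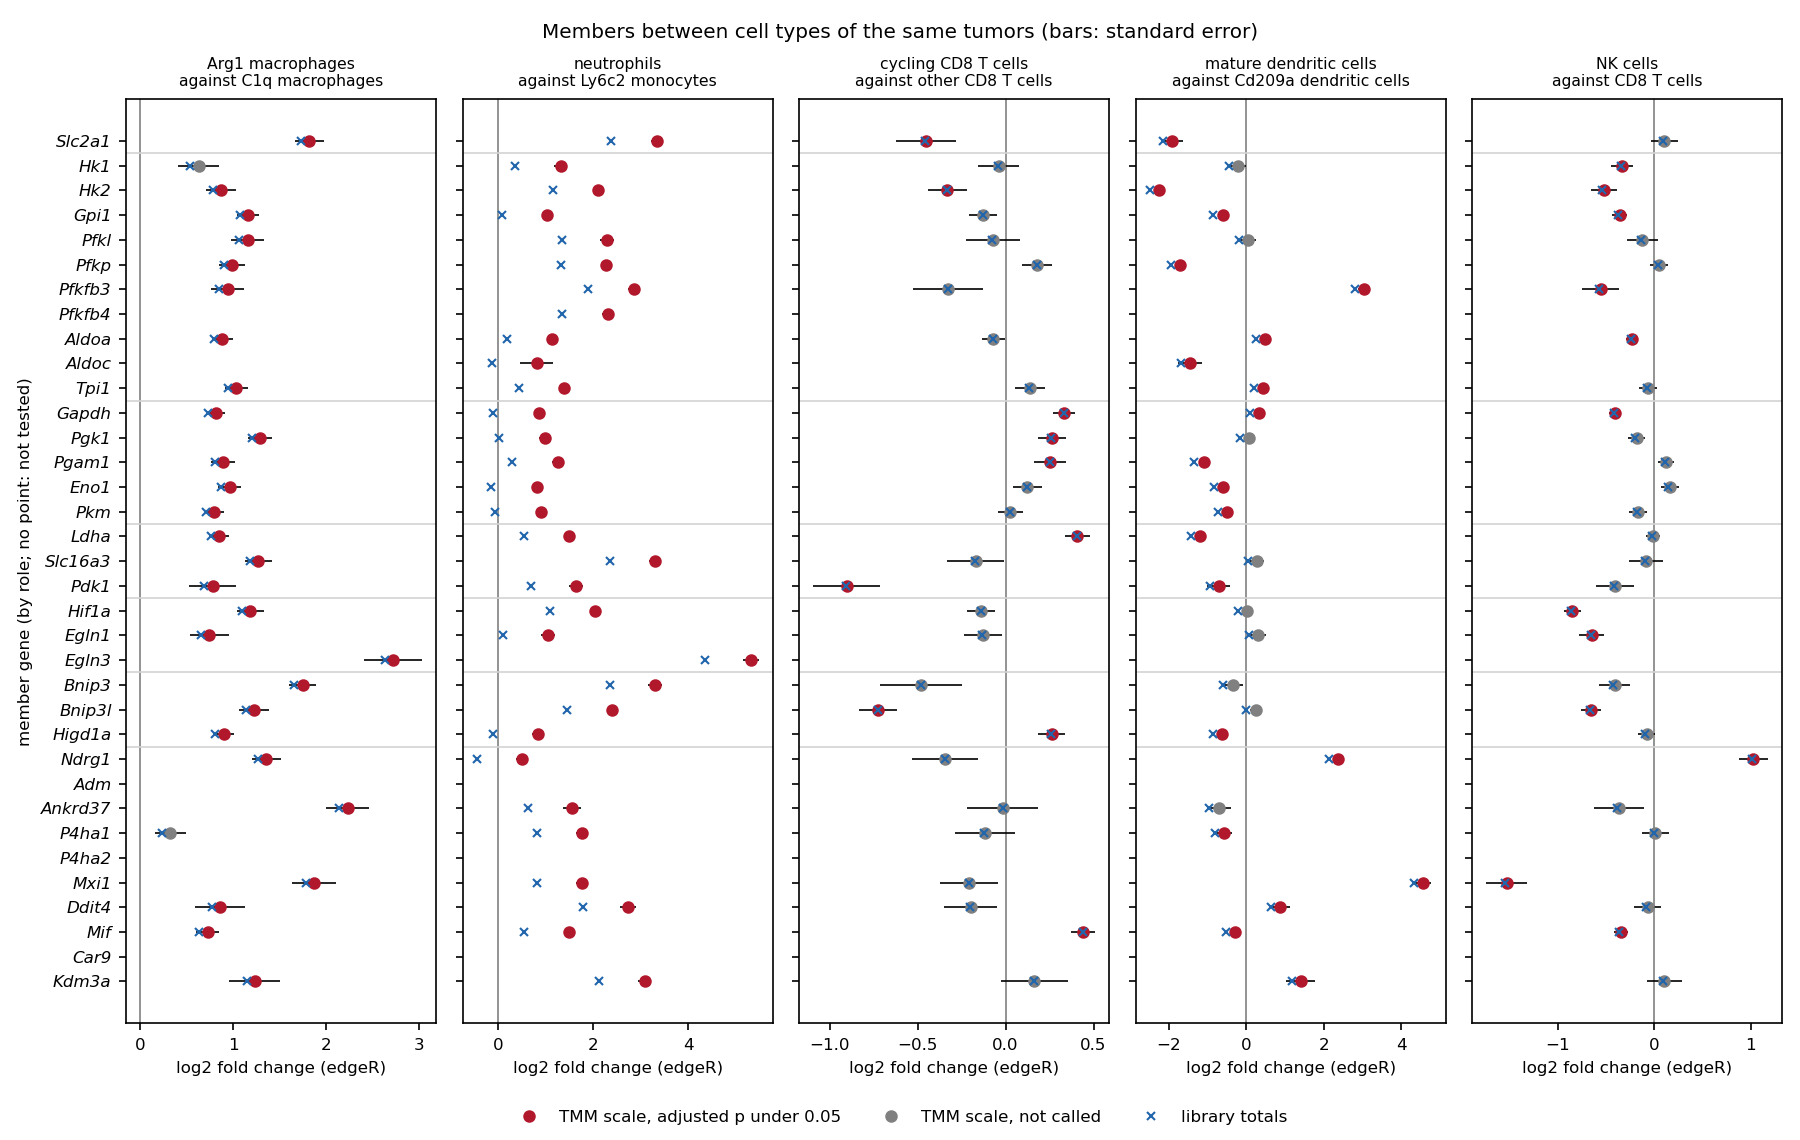
Log2 fold change of each tested member between 2 cell types of the same 4 tumors, for 5 comparisons; circles with standard errors are on the TMM scale, red where the adjusted p was under 0.05, and crosses are on library totals. The scales part by almost 1 log2 unit for neutrophils, and the dendritic cell panel splits in both directions.

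Depth differed between these types, with medians of 2081 UMIs per neutrophil and 4863 per monocyte. Among cells with 2000 to 8000 UMIs, 31 members were called between them on the TMM scale.

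Mature dendritic cells, a migratory state, were gated on Fscn1, Ccl22, Cacnb3 and Il4i1. Against Cd209a dendritic cells the members differed in both directions, as did all genes. Of 30 tested members, 8 were higher and 13 lower, while 30.3% and 29.5% of all 7542 genes were higher and lower. The called share of members (21 of 30) stood beside 59.8% for all genes. On library totals, 6 members were higher and 14 lower, with 22.6% and 38.8% of all genes, and the median of all genes moved from 0.03 to -0.21.

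The largest positive differences were those of Mxi1, Pfkfb3, Ndrg1 and Kdm3a. Mxi1 was at 1.28, 1.60, 1.33 and 1.58 per 10000 in mature and 0.111, 0.0878, 0.0640 and 0.0201 in Cd209a dendritic cells (log2 fold change 4.57, SE 0.21, adjusted p = 5.55e-14). Its values in Cd209a dendritic cells rest on 19 UMIs in all. Pfkfb3 in Cd209a dendritic cells was at 0.388, 0.237, 0.272 and 0.181 (3.05, SE 0.15, adjusted p = 1.43e-13). Ndrg1 was at 2.11, 3.46, 2.09 and 2.49 against 0.776, 0.659, 0.480 and 0.502 (2.37, SE 0.13). These 3 did not overlap in any tumor. Kdm3a, a histone demethylase that HIF induces, was at 0.119, 0.173, 0.0970 and 0.202 against 0.139, 0.0615, 0.0480 and 0.0402 (1.41, SE 0.36, adjusted p = 0.00209), and was higher in 3 of 4 tumors, with the first Csf1r fl/fl tumor as the exception. Cd209a dendritic cells held 17 UMIs of Kdm3a in all. Kdm3a and Mxi1 may have passed the filter on their counts in mature dendritic cells alone, and both kept their calls with no filter.

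The largest negative differences were those of Hk2, Slc2a1, Pfkp and Aldoc. Hk2 was at 0.270, 0.333, 0.302 and 0.367 in mature and 1.25, 2.11, 1.70 and 1.99 in Cd209a dendritic cells (-2.25, SE 0.13, adjusted p = 1.47e-12), and the difference was -2.84 among cells with 2000 to 8000 UMIs. Slc2a1 was at 0.113, 0.1003, 0.155 and 0.0288 against 0.499, 0.562, 0.320 and 0.482 (-1.91, SE 0.28). Pfkp, the platelet-type phosphofructokinase, was at 0.555, 0.784, 0.593 and 0.641 against 1.88, 2.88, 2.16 and 3.11 (-1.71, SE 0.11). Aldoc, the brain-type aldolase, was at 0.0323, 0.0638, 0.0683 and 0.0864 against 0.222, 0.184, 0.192 and 0.241 (-1.45, SE 0.30), with -2.11 under the stricter gate. All 4 were lower in 4 of 4 tumors without overlap. Ldha, the lactate dehydrogenase subunit, was lower at -1.18 (SE 0.09), Pgam1 at -1.09 (SE 0.12), Eno1 at -0.59 (SE 0.11) and Pkm at -0.49 (SE 0.11).

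Not every enzyme followed. Aldoa was higher (0.50, SE 0.09), as were Tpi1 (0.45, SE 0.10) and Gapdh (0.34, SE 0.08), of which Tpi1 and Gapdh lost the call on library totals. Hif1a (0.03, SE 0.12) and Egln1 (0.30, SE 0.22) did not pass. Of the pentose phosphate genes, 5 of 6 were lower and none higher, led by Taldo1 (-1.67, SE 0.10) and Tkt (-1.32, SE 0.13). In the further hypoxia list 5 of 14 were higher and 2 lower, with Nfil3 (2.19, SE 0.16) and Vegfa (2.19, SE 0.48) at the top and Pdk3 (-0.89, SE 0.20) and Fam162a (-0.60, SE 0.18) at the bottom, and Vegfa was at 0 in the Cd209a dendritic cells of both Lyve1Cre Csf1r fl/fl tumors. On library totals 4 genes of that list were higher and 3 lower. Eno3, the muscle enolase, was 1 of 3 other glycolytic genes and was higher at 3.70 (SE 0.23). Doublet calls made up 6.37% of mature and 4.38% of Cd209a dendritic cells.

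**Figure D4:**
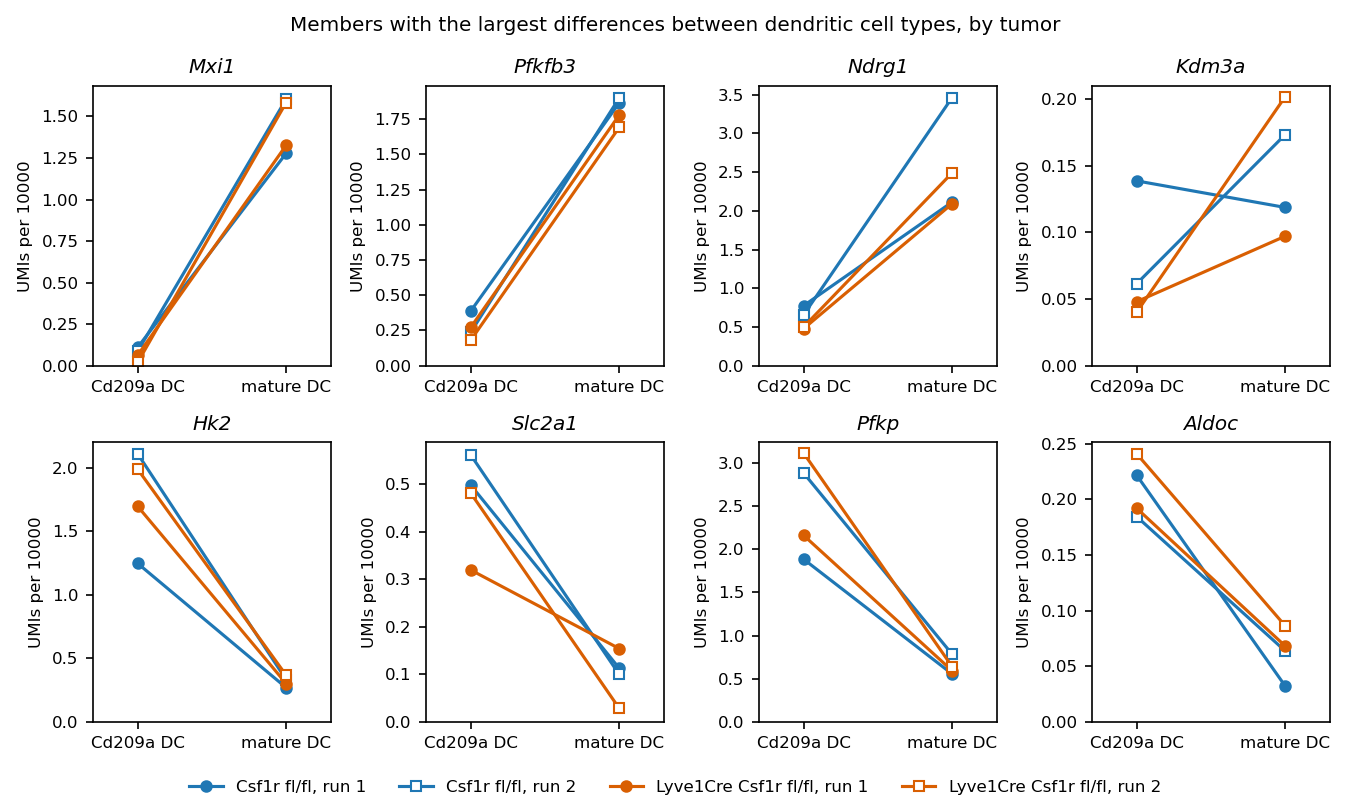
UMIs per 10000 of the 4 called members with the largest log2 difference in each direction between Cd209a and mature dendritic cells, with a line for each tumor. The first 3 panels rise in every tumor, Kdm3a does not rise in the first Csf1r fl/fl tumor, and the lower row falls in every tumor.

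Cycling CD8 T cells were compared with CD8 T cells outside the cell cycle. Of 29 tested members, 6 were higher and 4 lower, beside 18.8% and 18.5% of all 8957 genes, and 37.3% of all genes were called. The share of members called was thus near that of all genes. Mif was at 8.48, 9.11, 9.88 and 8.41 per 10000 in cycling and 6.18, 5.80, 8.13 and 6.50 in other CD8 T cells (log2 fold change 0.44, SE 0.07, adjusted p = 2.18e-05). Ldha was at 5.61, 7.48, 6.598 and 7.40 against 4.61, 5.04, 5.35 and 5.30 (0.41, SE 0.07). Gapdh was at 13.2, 12.7, 13.5 and 12.4 against 11.4, 9.15, 11.9 and 8.96 (0.33, SE 0.06). These 3 did not overlap, while Pgk1 was at 2.11, 2.94, 2.44 and 3.48 against 1.83, 2.59, 1.99 and 2.68 (0.26, SE 0.08, adjusted p = 0.0104), higher in 4 of 4 tumors with overlapping values. The call was lost or turned under 4 alternatives for Pgk1, 2 each for Mif and Gapdh and 1 for Ldha.

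The lower members were Pdk1, a kinase that inhibits pyruvate dehydrogenase, Bnip3l, Slc2a1 and Hk2. Pdk1 was at 0.137, 0.132, 0.123 and 0.246 against 0.176, 0.365, 0.287 and 0.428 (-0.90, SE 0.19, adjusted p = 0.000767). Bnip3l was at 0.635, 0.579, 0.721 and 0.646 against 1.01, 1.25, 1.02 and 0.976 (-0.72, SE 0.11, adjusted p = 1.74e-05), without overlap. Slc2a1 was at 0.180, 0.276, 0.171 and 0.207 against 0.194, 0.394, 0.250 and 0.344 (-0.45, SE 0.17, adjusted p = 0.0398). Hk2 was at 0.416, 0.530, 0.351 and 0.743 against 0.541, 0.694, 0.408 and 0.910 (-0.33, SE 0.11, adjusted p = 0.0234). Both of the last were lower in 4 of 4 tumors, and Slc2a1 lost the call under 9 alternatives, Hk2 under 8, Pdk1 under 1 and Bnip3l under none of those run. On library totals 6 members were higher and 4 lower too, beside 18.6% and 18.2% of all genes. Cycling cells were deeper, with a median of 8437 UMIs against 4213, and among cells with 2000 to 8000 UMIs none of the 6 higher calls remained and Mif turned to -0.035. Without the Lyve1Cre Csf1r fl/fl tumor of run 2, 6 members were called in place of 10. S100a8 and S100a9 were together at 6.35, 3.69, 4.0 and 1.37 per 10000 in cycling cells against 9.10, 5.69, 6.12 and 4.31 in the others. The 4 Arg1 gate genes were at 0.768, 0.568, 0.427 and 0.239 against 1.66, 1.51, 0.920 and 0.657. Both sets were lower in cycling cells in 4 of 4 tumors, and their part in the lower calls, here and in the next list, was not tested. With doublet calls left out, Slc2a1 was at -0.29 (adjusted p = 0.262 in edgeR's test) and Hk2 at -0.13 (adjusted p = 0.567). Pdk1 and Bnip3l kept their calls without doublets. In the further hypoxia list 4 of 14 were lower and none higher, with Plin2 (-1.24, SE 0.14), a lipid droplet protein, and Hilpda (-0.75, SE 0.14) in front. Of 6 other glycolytic genes Slc16a1 was higher and Slc2a3 lower, and 2 of 7 pentose phosphate genes, Rpia and Tkt, were higher.

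NK cells against CD8 T cells outside the cycle gave 1 higher and 11 lower of 29 tested members, while 14.7% and 13.9% of all 9251 genes were higher and lower and 28.6% were called. Library totals gave the same counts, beside 14.2% and 14.5% of all genes. Ndrg1 was at 0.384, 0.386, 0.339 and 0.454 per 10000 in NK and 0.181, 0.150, 0.226 and 0.217 in CD8 T cells (log2 fold change 1.03, SE 0.15, adjusted p = 0.000185). Mxi1 was at 0.0611, 0.0772, 0.137 and 0.0722 against 0.225, 0.308, 0.250 and 0.205 (-1.53, SE 0.21, adjusted p = 0.000109). Hif1a was at 0.801, 1.53, 1.15 and 1.58 against 1.64, 3.01, 2.04 and 2.40 (-0.85, SE 0.09, adjusted p = 1.04e-05). Ndrg1, Mxi1 and Hif1a did not overlap between the types. Bnip3l was at 0.611, 0.733, 0.799 and 0.552 against 1.01, 1.25, 1.02 and 0.976 (-0.65, SE 0.10, adjusted p = 0.000266). Egln1, the main oxygen sensor, was at 0.316, 0.502, 0.334 and 0.598 against 0.461, 0.930, 0.664 and 0.717 (-0.65, SE 0.13, adjusted p = 0.00212). Both were lower in 4 of 4 tumors, Bnip3l without overlap and Egln1 with overlapping values. Gapdh (-0.40, SE 0.06), Gpi1 (-0.36, SE 0.08) and Mif (-0.35, SE 0.07) were lower as well, whereas Ldha (-0.01, SE 0.07) and Slc2a1 (0.11, SE 0.14) did not pass. Vegfa was the 1 of 16 further hypoxia genes that was higher (2.02, SE 0.22), and 4 were lower, led by Epas1 (-2.84, SE 0.38), which encodes HIF-2α, and Hmox1 (-1.24, SE 0.27). Eno3 (-1.86, SE 0.18) and Slc2a3 (-0.93, SE 0.13) were the 2 of 6 other glycolytic genes that were lower, and Pgls was the 1 of 7 pentose phosphate genes. NK cells were not divided by the cell cycle, and Mki67, Top2a, Birc5 and Cdk1 were together at 7.70, 5.24, 5.05 and 9.53 per 10000 in them against 0.590 to 0.816 in the CD8 T cells. S100a8 and S100a9 were together at 4.01, 4.96, 5.89 and 3.02 per 10000 in NK cells against 9.10, 5.69, 6.12 and 4.31 in the CD8 T cells. The 4 Arg1 gate genes went the other way, at 8.37, 3.44, 5.11 and 6.0 against 1.66, 1.51, 0.92 and 0.657. Doublet calls made up 8.08% and 13.8% of the cells. Ndrg1, Mxi1, Hif1a, Bnip3l and Egln1 kept their direction and call with doublet calls left out. The part of the cell cycle and of these marker genes in the differences above was not tested.

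The study was built to compare the genotypes. In the fit without the run, no member was called in any of the 13 cell types between Lyve1Cre Csf1r fl/fl and Csf1r fl/fl tumors. With the run as a block, 3 were called in tumor and stromal cells, given below. Over the 13 types, 368 tests of members were made, 18 to 33 per type, and 2 of 95949 tests of all genes were called (0.00208%), 1 in C1q macrophages (0.0121%) and 1 in cycling CD8 T cells (0.0112%). With 2 tumors per genotype the median SE of a member lay between 0.26 and 0.40 on the log2 scale. Differences well above this size also went uncalled, such as Egln3 at 1.10 in C1q macrophages. An exact permutation of 2 against 2 tumors cannot go below p = 0.333. At an unadjusted p under 0.05 in edgeR there were 3 of 368 members (0.815%), against 1.98% of all tests, and DESeq2 called none.

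The 3 were Slc16a3 in C1q macrophages and Egln3 and Ndrg1 in tumor and stromal cells. Slc16a3 was at 0.665 and 0.971 per 10000 in Csf1r fl/fl and 1.29 and 1.09 in Lyve1Cre Csf1r fl/fl (log2 fold change 0.59, SE 0.26, adjusted p = 1.0 in edgeR's test). Ndrg1 was at 0.847 and 0.816 against 1.36 and 1.22 (0.64, SE 0.23), and Egln3 at 0.380 and 0.376 against 0.562 and 0.574 (0.59, SE 0.22). In these 3 the genotypes did not overlap, as for 28.7% of all genes in C1q macrophages and 19.4% in tumor and stromal cells. With the Chromium run as a replicate block, which pairs the tumors sequenced together, 3 members were called, all in tumor and stromal cells: Ndrg1 (0.64, SE 0.14, adjusted p = 0.00214), Slc2a1 (0.64, SE 0.16, adjusted p = 0.00998) and Adm (0.70, SE 0.19, adjusted p = 0.0322), where 0.833% of all 9729 genes were called. In these cells the 7 epithelial and stromal markers were together at 12.6 and 14.3 per 10000 in Csf1r fl/fl against 11.1 and 10.2 in Lyve1Cre Csf1r fl/fl, and Arg1, Mmp12, Gpnmb and Spp1 at 1.23 and 1.92 against 7.04 and 1.06. With the 42.1% doublet calls given above, the part of these in the 3 calls was not tested.

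The members leaned to one side in some types. All members of a type were read in the same 2 tumors per genotype, so these counts are not of independent observations. In neutrophils 29 of 32 tested members were higher in Lyve1Cre Csf1r fl/fl, with a median log2 difference of 0.24 beside -0.02 for all genes, and 7 did not overlap between genotypes, beside 21.7% of all genes. Overlap was judged over both runs together, without pairing the tumors of a run. Bnip3, at 0.53 (SE 0.33), and Egln1, at 0.48 (SE 0.29), were the furthest up, and Hk1, at -0.35 (SE 0.34), the furthest down. In C1q macrophages 27 of 31 were higher, with a median of 0.23 beside -0.01, from Ddit4 at -0.69 to Egln3 at 1.10, and 7 did not overlap, beside 28.7% of all genes. The Egln3 levels of C1q macrophages given above put 1 of the 2 Lyve1Cre Csf1r fl/fl tumors, that of run 2, above both controls and the other between them. The same tumor held the 4 Arg1 gate genes at 8.67 per 10000 against 2.34, 2.02 and 1.36, and the part of this in the lean was not tested. In tumor and stromal cells 27 of 33 were higher, with a median of 0.13 beside 0.0017. Plasmacytoid dendritic cells leaned the other way, with 6 of 18 higher and a median of -0.19 beside 0.01, as did CD4 T cells without Foxp3, with 4 of 19 higher and a median of -0.15 beside 0.01. Over the 13 types the medians of the members ran from -0.19 to 0.24. Members whose genotypes did not overlap numbered 11 of 30 in regulatory T cells, 9 of 33 in tumor and stromal cells, 9 of 26 in Cd209a dendritic cells and 7 of 30 in Arg1 macrophages, where the shares of all genes were 26.1%, 19.4%, 24.1% and 26.7%. There were 6 of 31 in mature dendritic cells (20.1% of all genes), 5 of 31 in Ly6c2 monocytes (21.6%), 5 of 29 in CD8 T cells (23%) and 5 of 29 in cycling CD8 T cells (22.5%). CD4 T cells without Foxp3 had 4 of 19 (24.5%), plasmacytoid dendritic cells 3 of 18 (24%) and NK cells 3 of 29 (16.9%). C1q macrophages numbered 497 and 317 cells in Csf1r fl/fl and 157 and 82 in Lyve1Cre Csf1r fl/fl tumors. Of the other pathway genes 1 was called between genotypes, Hmox1 in cycling CD8 T cells, which encodes heme oxygenase 1, at 0.570 and 0.833 against 0.0285 and 0.0711 per 10000 (-3.71, SE 0.36, adjusted p = 0.0182). Hmox1 was called under 12 of 13 settings but not once doublets were left out (-1.21, adjusted p = 1.0 in edgeR's test), and 17.4% of cycling CD8 T cells were doublet calls. C1qa, C1qb and C1qc moved with it, together at 0.528 and 0.370 per 10000 in these cells of Csf1r fl/fl against 0.0854 and 0.149 in Lyve1Cre Csf1r fl/fl tumors, and the part of these in the Hmox1 value was not tested.

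**Figure D5:**
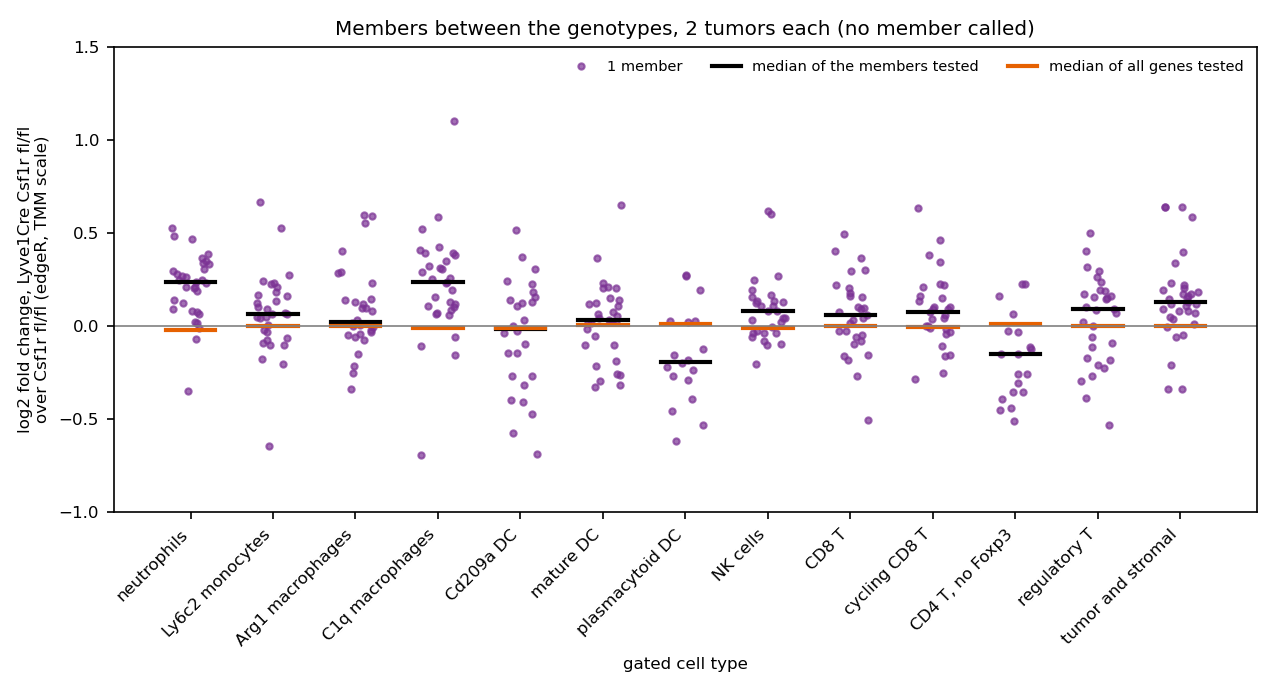
Log2 fold change of each tested member between genotypes in 13 cell types (points), with the median of the tested members in black and of all tested genes in orange. Neutrophils, C1q macrophages and tumor and stromal cells lean above 0 and plasmacytoid dendritic cells and CD4 T cells without Foxp3 below. No point passed the test in this fit, which leaves out the run.

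Several members differed between the runs in most types. Hk2 was higher in both tumors of run 2 than in both of run 1 in 13 of 13 types, as in neutrophils with 2.77 and 3.36 in run 1 and 4.57 and 5.23 in run 2. Gapdh was higher in run 1 in 13 of 13 types, and Higd1a, a mitochondrial hypoxia-induced protein, in 11 of 13. Gpi1, Pfkp and Hif1a were higher in run 2 in 10 of 13 types. Across all genes, 26.3% to 45.3% were higher in both run 2 tumors, depending on the type, and 13.5% to 25.1% in both run 1 tumors. Each run held both genotypes, so these shifts do not separate them. What differed between the runs was not tested.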

How the data were processed

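CD45+ cells of 4 EO771 tumors were sequenced in 2 Chromium runs. The authors deposited a table of raw UMI counts per cell with the hashtag counts, and a table of SCTransform-corrected values, recorded here as a score, of which only the cell names were used. Its cells were the ones kept here, with at most 4.994% mitochondrial UMIs. Per the study's methods, cells were filtered to singlets and 4 clusters specific to the Lyve1Cre Csf1r fl/fl tumor of run 2 were removed, so the removal fell mostly on 1 tumor of that genotype. Its part in the genotype comparison was not tested. The submitters' processing notes name Cell Ranger 6.0.1, Seurat and the mouse build mm10. Tumors were assigned by the higher hashtag of each barcode after centered log-ratio scaling within the run, and all other values are UMI counts. Cell types were gated on lineage markers with thresholds set after the counts were seen. No member gene was used in a gate, cells in more than 1 gate (1029) or in none (10628) were left out, and B cells (121 cells, 55.4% doublet calls) were dropped. cDC1 and gamma delta T cells had under 20 cells in a tumor and were not tested. Doublets were called with Scrublet (scanpy 1.11.5, expected rate 0.2), which marked 21.3% and 12.8% of cells in the runs, and were left out only as an alternative.

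UMIs were summed per tumor and type and tested with edgeR 4.0.16 (quasi-likelihood test, filterByExpr, TMM factors, Benjamini-Hochberg adjustment over all tested genes, threshold 0.05) in R 4.3.3. Differences between cell types had the tumor as a block. The genotype fit had no block. Each SE of these tests was calculated as the absolute log2 fold change divided by the square root of the test's F statistic. The runs pair 1 tumor of each genotype, and within a run the deviations from the genotype means correlated at 0.17 to 0.56 in 13 of 13 types, so the run was also fitted as a block. DESeq2 1.42.0, another normalization, no filter, leaving out each tumor, a stricter gate, a hashtag ratio of at least 3, cells of 2000 to 8000 UMIs and library totals were the other alternatives, the last chosen after the data were seen, as were the TMM factors (over the sums of all 13 types) for the levels. The tests were also run on simulated counts with known changes. These counts held no tumor or run effects, so they cannot show how the tests behave under such effects. Per comparison, up to 4 called members in each direction with the largest log2 difference are given with every tumor's value. The members and gene lists were chosen with earlier results of these data known. Of 53361 barcodes, 200 occurred in both runs. Promoter sequences are from RefSeq (GRCm38.p6), with 33 of 35 members matched. With 2 tumors per genotype, p-values between genotypes measure the spread between these tumors. Between cell types they measure the spread of differences within 4 tumors, with variance shared across genes by edgeR. An exact sign flip over 4 tumors cannot go below p = 0.125. Intervals and floors cover counting error only.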

Additional observations from a re-analysis of the deposited data

Results flagged for a closer look

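The log2 ratio of Aldoc between mature and Cd209a dendritic cells was -2.75 in the first Csf1r fl/fl tumor (run 1), far from -1.52, -1.51 and -1.48 in the other 3 tumors. Its level in mature dendritic cells was lowest in that tumor, at 0.0323 UMIs per 10000. The levels of both types in that tumor rest on few UMIs. It was the 1 flag among 29 sets of 4 ratios examined, and chance flags about 1 in 20 such sets.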

How the results depend on the processing

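Counts of called members moved by over 1.5 times in few places. Between genotypes, where no member was called, fitting without a filter called 1 (Adm in neutrophils), and the run as a replicate block called 3 (Slc2a1, Adm and Ndrg1 in tumor and stromal cells). Leaving out 1 tumor gave 0 to 1 calls, the 1 being Adm in neutrophils without the Lyve1Cre Csf1r fl/fl tumor of run 2. For cycling CD8 T cells, DESeq2 called 5 in place of 10, cells of 2000 to 8000 UMIs gave 2, the fit with no replicate block 3, and leaving out a tumor 6 to 11; Mif turned to -0.035 in that depth window. For NK cells, the fit with no replicate block called 5 in place of 12. Leaving out a tumor gave 25 to 27 calls for Arg1 macrophages, 30 to 31 for neutrophils, 18 to 21 for mature dendritic cells and 10 to 11 for NK cells, and 23 to 25 members with a constant highest type. The TMM scale gave 28 such members in place of 23, and moved the highest mean from Arg1 macrophages to neutrophils for 13 of 13 members. The cause of these changes was not tested. Of the named members, 347 alternative values kept their direction and call, 26 lost the call and 1 turned, and the last 27 all fell in the cycling CD8 comparison. Tumor and stromal cells could not be fitted in the depth window. The pairing changed no other count of calls by over 1.5 times. With 2 tumors per genotype and 33 Arg1 macrophages in 1 tumor, small differences were beyond the depth.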
